A study of Mus musculus with 6 samples.

Results

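The proteasome is the barrel-shaped protease that degrades ubiquitin-tagged proteins in the cytosol and nucleus. Its genes were taken as the protein-coding genes named Psma, Psmb, Psmc or Psmd plus a number, without the interferon-inducible subunits Psmb8 and Psmb9. This gave 36 of the 19973 genes in the table. RNA had been sequenced from peritoneal macrophage cultures of old (18 months) and young (2 months) male C57BL/6 mice, a common inbred strain, with 3 libraries of each age. All mice had received 200 µg of zymosan A, a yeast wall particle that starts a self-limiting peritonitis, and the lavage was taken 72 hours later. All cells were then cultured overnight in medium with L-cell supernatant, a source of macrophage growth factor, washed free of unattached cells and kept for 6 hours with the vehicle, phosphate-buffered saline. The study's title concerns the lipid resolvin D2 and its receptor in ageing; the libraries compared here received no lipid. The protocol mentions both 3 mice and triplicate sequencing without saying which a library is. A p-value therefore measures variation between libraries that could be technical in part.

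The complete enzyme joins a core, in which rings of alpha and beta subunits enclose the peptidase sites, to a regulatory particle. The particle's base holds a ring of ATPases that unfold substrates, plus large scaffold and ubiquitin-receptor subunits. Its lid carries the deubiquitinase that removes the ubiquitin chain. In mammalian cells the transcription factor NRF1, encoded by Nfe2l1, raises the proteasome genes together when proteasome activity falls short. In macrophages, proteasomes also cut proteins into peptides for presentation and degrade inhibitors of inflammatory signalling.

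The 36 genes were 8 alpha subunits, 8 beta subunits, 6 ATPases of the base, 3 other base subunits, 8 lid subunits and 3 assembly factors of the base that carry Psmd names. All 36 passed the filter of a mean of at least 10 normalized counts. Psmb11, a thymus subunit, was not analysed here.

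Library depth lay between 8163016 and 13007604 reads. Old replicate 3 and young replicate 3 stood apart from the other libraries of their ages, at opposite ends of the second principal component (18.2% of the variance). On the first component (71.5%) each also lay nearer the other age. Old replicate 3 was at -26.2, against -46.2 and -46.1 for old replicates 1 and 2. Young replicate 3 was at 30.7, against 45.1 and 42.7 for young replicates 1 and 2. Old replicate 3 had 1.34% of its reads on nuclear ribosomal RNA genes, against 0.0177% to 0.154% in the other libraries. Macrophage markers were abundant at both ages, with summed normalized counts of 348540 to 434345 in old and 279659 to 354934 in young libraries. B cell markers summed to 1671 to 3312 in old and 125 to 129 in young libraries, with 10 of 10 higher in old. T and NK cell markers summed to 71.1 to 110.3 in old and 7.61 to 14.0 in young libraries, and mast cell markers to 552 to 630.0 in old and 46.3 to 71.1 in young libraries. Sums of neutrophil markers, of which 5 of 10 had values, were 994 to 1103 in old and 488 to 498 in young libraries. These sums came almost wholly from S100a8 and Csf3r. Camp, Ltf and Cxcr2 averaged 0 to 0.71 normalized counts in old and 0 to 0.67 in young libraries. Dendritic cell markers summed to 35.6 to 57.4 in old and 16.9 to 21.9 in young libraries, and mesothelial and fibroblast markers to 683 to 772 in old and 662 to 804 in young libraries. Of 5 tested mesothelial and fibroblast markers 2 were higher in old (Col3a1 and Pdgfra) and 1 was lower (Col1a1). Of 12 proliferation markers 12 were lower in old, with sums of 4196 to 4445 in old and 27308 to 30753 in young libraries. In such bulk RNA, fewer cells of a type and less RNA per cell cannot be told apart.

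Promoters of 9 base and lid genes shared a short motif that was present in 1 core gene, and the windows that hold it are printed for that reason. The ETS motif CCGGAAG, searched on both strands, is bound by the ETS family of transcription factors. RefSeq promoters on build GRCm38.p6, from 250 bases before to 50 bases after the start site, were matched for 29 of the 36 genes. The motif was present in 9 of 14 genes of the base and lid and in 1 of 12 core genes, the alpha subunit gene Psma6. In Psma6 the motif began 132 and 2 bases before the start site and 17 bases after it, and those windows are not printed. The motif was present in 2683 of 27025 genes with a promoter in the table (9.93%). The sequences below run 5′ to 3′ on the gene's strand with the motif in capitals, which reads CTTCCGG where it lies on the other strand. Psmc2 has 2 annotated promoters with the motif.
Psmc1 (chr12:100110163-100110191, plus strand): tggtggatgcaCTTCCGGcggtggcgatt
Psmc2 (chr5:21785180-21785208, plus strand): accagtgagcaCTTCCGGgatggggctcg
Psmc2 (chr5:21786712-21786740, plus strand): gcgcggagctaCTTCCGGtggggaagaga
Psmc6 (chr14:45329713-45329741, plus strand): aggcgggccagCCGGAAGgggcggagcca
Psmd2 (chr16:20651615-20651643, plus strand): tccgcagggcgCTTCCGGtctggaggaca
Psmd4 (chr3:95042722-95042750, minus strand): ttacagctgttCCGGAAGctgctgcgaag
Psmd6 (chr14:14120973-14121001, minus strand): cagagacgcgaCCGGAAGtcagactggcg
Psmd11 (chr11:80428593-80428621, plus strand): cgagggcgggtCTTCCGGgtgtgtgtttc
Psmd12 (chr11:107479500-107479528, plus strand): tgagcgggcgaCTTCCGGtgcgagtgacg
Psmd13 (chr7:140882377-140882405, plus strand): cgcccgcggtgCCGGAAGtgagcgagcac
In Psmd13, Psmd11, Psmd12, Psmc2 (second promoter), Psmd2 and Psmc1 the motif began 6 to 28 bases before the start site, and in Psmd6, Psmc6 and Psmd4 45, 100 and 125 bases before it. At the first Psmc2 promoter it began 84 bases before the start. These are letter matches and not observed binding.

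Lid subunit genes gave the lower calls in old macrophages, and core genes most of the higher ones. With all 6 libraries, 4 genes were higher in old (Psma3, Psma4, Psmb6 and Psmd8), 3 were lower (Psmd3, Psmd7 and Psmd11) and 29 did not pass (limma, Benjamini-Hochberg adjusted p under 0.05 over 11795 genes). That is 19.4% of the members, against 35.5% of all tested genes, of which 17.9% were higher and 17.6% lower. Old and young libraries did not overlap for 6 members, with old above young for Psma3, Psma8 and Psmd8 and below for Psmd3, Psmd7 and Psmd11. Among all tested genes 24.0% lay above and 23.6% below without overlap, 47.5% in all. The median log2 fold change, old minus young, was 0.13 over the members and 0.00 over all tested genes. Over the members it was 0.06 without young replicate 1, 0.07 without old replicate 1, 0.08 without old replicate 2, 0.10 without young replicate 2, 0.19 without young replicate 3, 0.20 without old replicate 3 and 0.26 without both libraries numbered 3. Over all tested genes it lay between -0.01 and 0.02 in those fits.

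**Figure D1:**
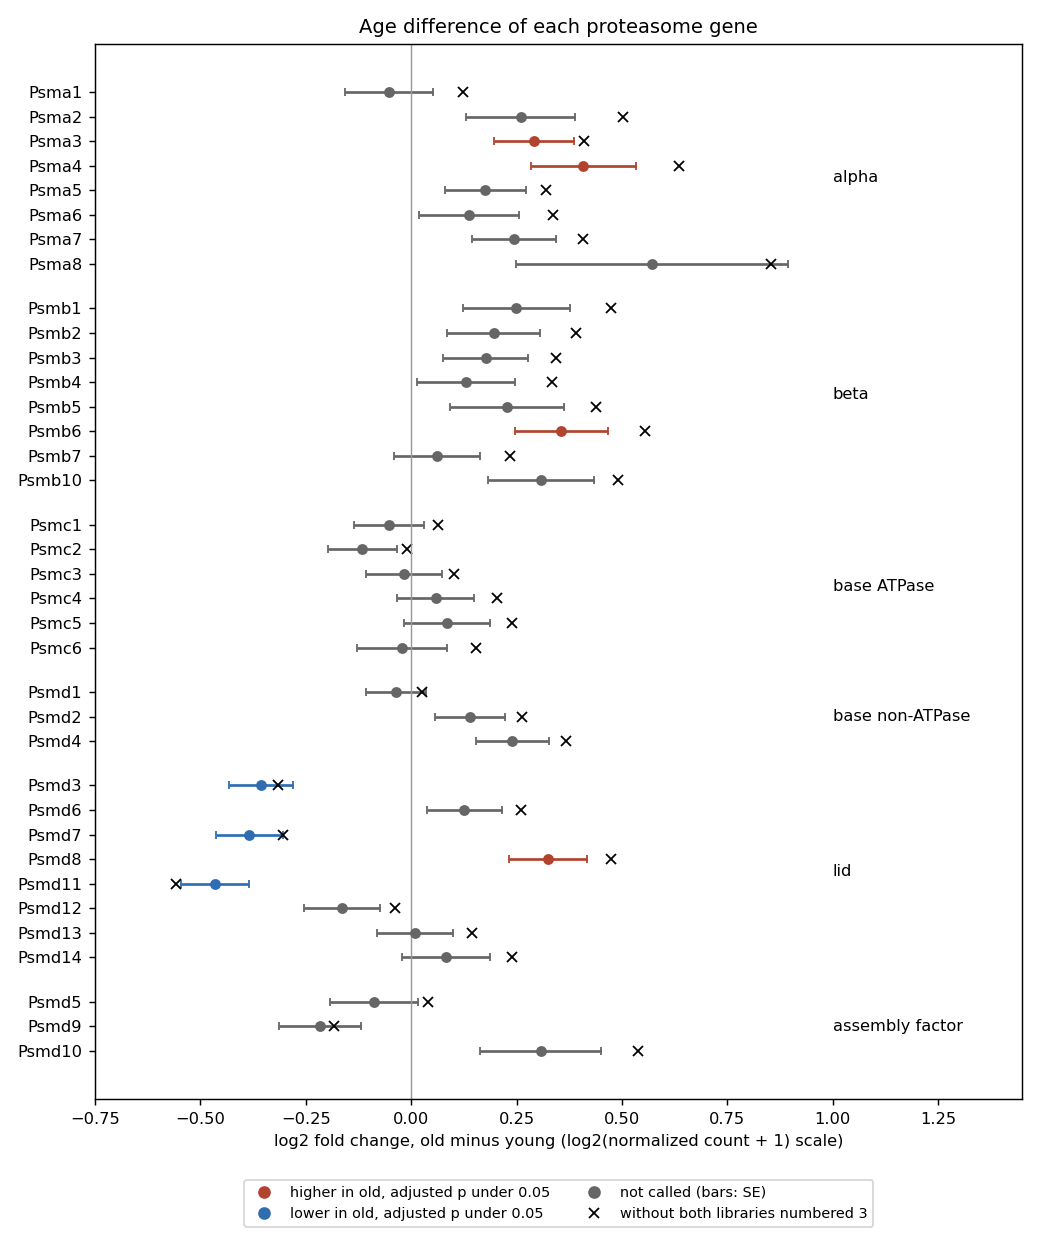
Log2 fold change of each of the 36 genes, old minus young, on the log2(normalized count + 1) scale with all 6 libraries (circles, bars are SE, n = 3 each) and without both libraries numbered 3 (crosses). Psmd3, Psmd7 and Psmd11 lie between -0.36 and -0.47 and stay below 0 without those libraries, while most core genes move to the right.

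The count of higher genes depended on single libraries and that of lower genes did not. Without both libraries numbered 3, 25 members were higher and 3 lower, in all 77.8%, against 59.0% of all tested genes, of which 30.3% were higher and 28.7% lower. The 3 lower genes were again Psmd3, Psmd7 and Psmd11. Old replicate 3 was the lowest old library for 33 of 36 members (91.7%; 48.0% of all tested genes), and young replicate 3 the highest young library for 32 (88.9%; 45.8% of all tested genes). Without old replicate 1, old replicate 2, young replicate 1 or young replicate 2, 0 members were higher, against 12.2%, 12.5%, 13.6% and 12.4% of all tested genes. Without old replicate 3, 16 members (44.4%) were higher, against 23.6% of all tested genes. Without young replicate 3, 8 members (22.2%) were higher, near the 17.6% of all tested genes. The same 3 genes (8.33%) were lower in each of these fits, against 12.6% to 28.7% of all tested genes.

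**Figure D2:**
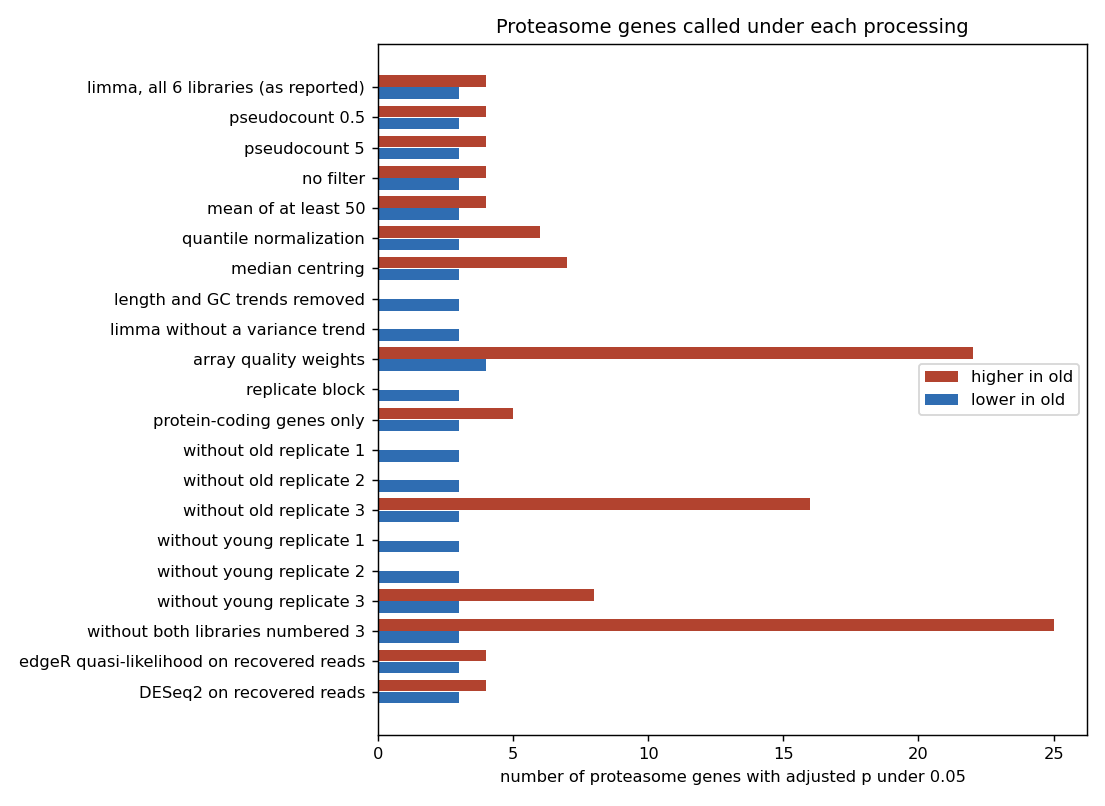
Number of the 36 genes that passed as higher and as lower in old macrophages with all libraries and under each of the 20 alternatives. The lower count is 3 or 4 throughout, and the higher count runs from 0 to 25.

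The lid genes moved in opposite directions. Of 8 members, 3 were lower and 1 was higher in old, with a median of -0.08. The median was -0.00297 without old replicate 3, -0.02 without young replicate 3 and 0.05 without both. Psmd11 (ENSMUSG00000017428; chromosome 11, 80428615 to 80473248, plus strand) encodes a scaffold subunit that holds the lid to the core, and its amount limits assembled proteasomes in human embryonic stem cells. Its normalized counts were 587, 574 and 601 in old libraries 1, 2 and 3 and 849, 859 and 731 in young libraries 1, 2 and 3. All old libraries lay below all young ones, and the old libraries were close to one another. Old libraries averaged 587 ± 13.6 and young ones 813 ± 71.2 (SD, n = 3 each), which gave -0.47 ± 0.08 on the log2 scale (SE; limma adjusted p = 0.0017). Its adjusted p lay between 2.37e-07 and 0.0195 over 20 alternatives. The noncoding transcript A730017L22Rik shares a 219-base stretch of 97.3% identity with Psmd11 and averaged 66.1 ± 7.35 normalized counts in old libraries and 54.8 ± 10.7 in young ones (SD, n = 3 each).

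Psmd7 (ENSMUSG00000039067; chromosome 8, 107580381 to 107588464, minus strand) encodes the inactive partner of the lid deubiquitinase. Its normalized counts were 526, 567 and 484 in old and 655, 694 and 706 in young libraries. The groups did not overlap, and young was 1.30-fold higher; old minus young was -0.38 ± 0.08 on the log2 scale (SE; limma adjusted p = 0.00483). Psmd3 (ENSMUSG00000017221; chromosome 11, 98682554 to 98695979, plus strand) encodes another scaffold subunit of the lid. Its normalized counts were 685, 697 and 605 in old and 853, 868 and 818 in young libraries. Here too every old library lay below every young one, and the log2 difference was -0.36 ± 0.08 (SE; limma adjusted p = 0.0057). The proliferation markers were lower in the same old libraries, and their part in these differences was not tested. Genes on the opposite strand overlap several members, among those that passed Psmd3, Psma3 and Psma4, and no source used here says whether counting was by strand. For Psma3 the overlapping gene, 3110056K07Rik, averaged 45.4 ± 20.2 normalized counts in old libraries and 40.0 ± 9.53 in young ones (SD, n = 3 each).

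Psmd8, a small lid subunit that completes lid assembly in yeast, was the lid gene that rose; it was singled out after its values were seen. Psmd8 (ENSMUSG00000030591; chromosome 7, 29174188 to 29180701, minus strand) had 3664, 3743 and 3082 normalized counts in old and 2611, 2724 and 3027 in young libraries. Each old library lay above each young one, and old replicate 3 came closest to young replicate 3. The log2 fold change was 0.32 ± 0.09 (SE; limma adjusted p = 0.0228), and 0.47 without both libraries numbered 3. Psmd14, the deubiquitinase itself, had 1149.6, 1147 and 992 in old and 896, 1055 and 1167 in young libraries. The groups overlapped, and its log2 fold change of 0.08 ± 0.10 did not pass. The remaining lid genes Psmd6, Psmd12 and Psmd13, with log2 fold changes of 0.13, -0.16 and 0.01, did not pass either. Within each library, the mean log2 level of Psmd3, Psmd7 and Psmd11 minus that of the other 5 lid genes was -1.19, -1.14 and -1.04 in old and -0.52, -0.60 and -0.82 in young libraries. These 3 genes were grouped after their values were seen, so this difference is a description.

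**Figure D3:**
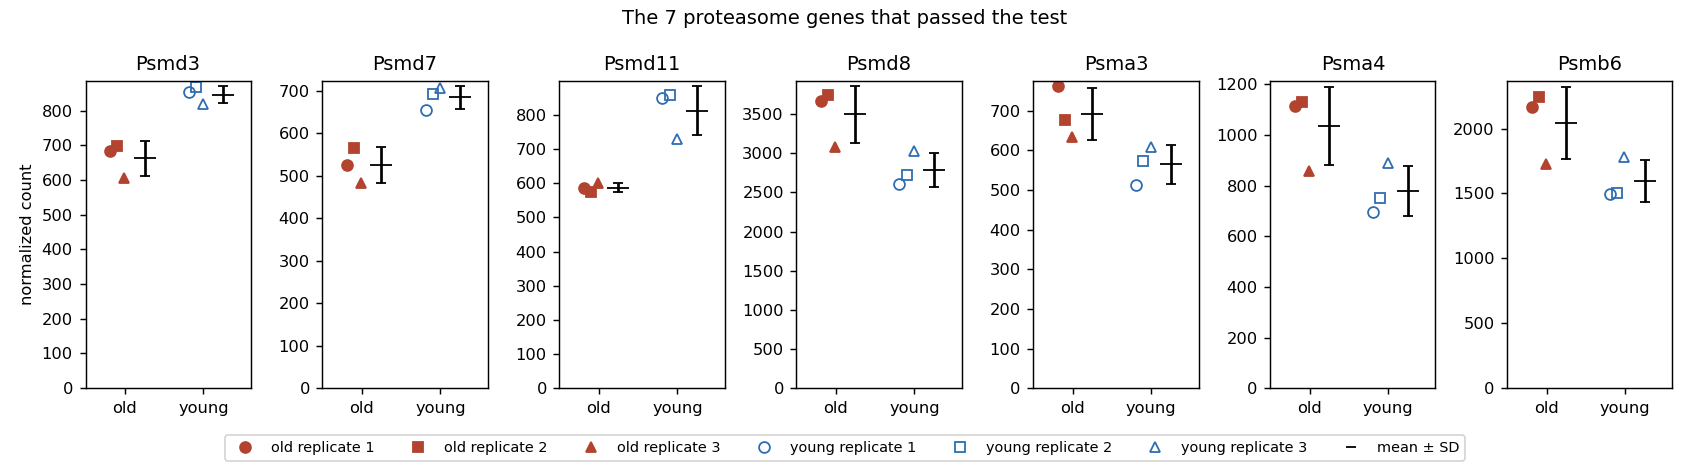
Normalized counts of the 7 genes that passed, in each old and young library, with mean and SD (n = 3 each), on axes that start at 0. Psmd3, Psmd7 and Psmd11 are lower in every old library, whereas for Psma4 and Psmb6 old replicate 3 lies below young replicate 3.

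Of the core genes 15 of 16 had positive log2 fold changes, and 3 passed. The alpha rings gate entry to the core. Among 8 alpha genes 2 were higher, 0 were lower, and the median was 0.25, or 0.41 without both libraries numbered 3. Psma4 (ENSMUSG00000032301; chromosome 9, 54950790 to 54958030, plus strand), whose protein's tail helps to close the gate in yeast, had 1115, 1131 and 859 normalized counts in old and 694, 751 and 888 in young libraries. The groups overlapped only between the libraries numbered 3. Its log2 fold change was 0.41 ± 0.12 (SE; limma adjusted p = 0.0308). Psma3 (ENSMUSG00000060073; chromosome 12, 70974621 to 70996347, plus strand) had 762, 678 and 632 in old and 512, 572 and 609 in young libraries, without overlap. Its log2 fold change was 0.29 ± 0.09 (SE; limma adjusted p = 0.0393). Neither gene passed when old replicate 1 or 2 or young replicate 1 or 2 was left out.

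The other alpha genes did not pass. Psma1, Psma2, Psma5, Psma6 and Psma7 had log2 fold changes from -0.05 (Psma1) to 0.26 (Psma2). Psma8, the alpha subunit of testis proteasomes, was low in these cells; its values are given because its groups stood apart, a choice made after they were seen. It had 39.4, 22.2 and 20.3 normalized counts in old and 18.1, 14.0 and 20.3 in young libraries, which gave 0.57 ± 0.32 on the log2 scale (SE; limma adjusted p = 0.20). Its groups did not overlap, but old replicate 3 and young replicate 3 both rounded to 20.3.

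Some beta subunits carry the peptidase sites, and 1 of 8 beta genes passed, with a median of 0.21, or 0.42 without both libraries numbered 3. Psmb6 (ENSMUSG00000018286; chromosome 11, 70525367 to 70527858, plus strand), the caspase-like subunit, had 2167, 2241 and 1729.8 normalized counts in old and 1494, 1506 and 1780.4 in young libraries. Old replicate 3 lay below young replicate 3, and the other old libraries lay above all young ones. The log2 fold change was 0.36 ± 0.11 (SE; limma adjusted p = 0.0326). Psmb5, the chymotrypsin-like subunit and the main target of proteasome inhibitors, had 393, 419 and 331 in old and 329.9, 271 and 380.3 in young libraries. Its log2 fold change of 0.23 ± 0.13 did not pass. Psmb7, the trypsin-like subunit, had 1226, 1210.4 and 963 in old and 1022, 1050.3 and 1171 in young libraries, with overlapping groups and a log2 fold change of 0.06 ± 0.10. The structural subunits Psmb1, Psmb2, Psmb3 and Psmb4 had log2 fold changes from 0.13 to 0.25, and 0 of 4 passed.

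Psmb10 replaces Psmb7 in the immunoproteasome, the form that interferon gamma induces. It had 676, 779.6 and 678 normalized counts in old and 525, 508 and 706 in young libraries, where young replicate 3 overlapped the old ones. Its log2 fold change was 0.31 ± 0.13 (SE; limma adjusted p = 0.0873). Of its partners left out by the rule, Psmb8 had 1244, 1312 and 1057 in old and 841, 817 and 984 in young libraries. Old lay above young in every library, at 0.45 ± 0.10 on the log2 scale (SE; limma adjusted p = 0.0075; passed under 20 of 20 alternatives). Psmb9 had a log2 fold change of 0.23 ± 0.13 and did not pass. The ratio of Psmb8 to Psmb5 normalized counts was 3.16, 3.13 and 3.19 in old and 2.55, 3.01 and 2.59 in young libraries, all old ratios above all young ones. The ratio of Psmb10 to Psmb7 was 0.55, 0.64 and 0.70 in old and 0.51, 0.48 and 0.60 in young libraries and overlapped. That of Psmb9 to Psmb6 overlapped too, at 0.088, 0.112 and 0.137 in old and 0.131, 0.112 and 0.117 in young libraries. Its mean was 0.112 in old and 0.120 in young libraries. B cells, which express these subunits, had more marker RNA in old libraries, and their part in this was not tested.

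In the base no gene passed in the limma fit over 11795 genes, with all 6 libraries weighted equally and values scaled as deposited. Psmd4 was higher with protein-coding genes only, with quantile normalization and with median centring. With library weights Psmc4, Psmc5, Psmd2 and Psmd4 were higher. Of 6 ATPase genes 0 passed and 0 had an unadjusted p under 0.05 (limma; edgeR and DESeq2 also called 0), with a median of -0.02 and log2 fold changes from -0.12 (Psmc2) to 0.08 (Psmc5). Psmc3 had 1822, 1841 and 1489.8 normalized counts in old and 1642, 1773 and 1777 in young libraries. Psmc4 had 1289, 1292 and 1146 in old and 1109.5, 1130.1 and 1349 in young libraries. Both overlapped between ages, with young replicate 3 at or above the other young libraries and old replicate 3 below the other old ones. The ATPase median turned positive without old replicate 3 (0.09), without young replicate 3 (0.03) and without both (0.13). Among the ATPases 3 genes were higher without both libraries numbered 3, namely Psmc4, Psmc5 and Psmc6. That is 50% of the 6 genes, against 30.3% of all tested genes.

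The base also holds scaffolds and a ubiquitin receptor. Psmd2, the scaffold that receives ubiquitin shuttle proteins, had 3429.7, 3311 and 3002 normalized counts in old and 2747, 2868 and 3238 in young libraries. Psmd1, the second large scaffold, had 1888, 1867 and 1692 in old and 1762, 1928 and 1894 in young libraries. Psmd4, a ubiquitin receptor, had 1107, 1113 and 959 in old and 893, 829 and 968 in young libraries, and overlapped only between the libraries numbered 3. Its log2 fold change was 0.24 ± 0.09 (SE; limma adjusted p = 0.0576), and it passed under 7 of 20 alternatives. The base assembly factors Psmd5, Psmd9 and Psmd10 did not pass. Psmd5 had 645, 655 and 588 in old and 570.3, 701 and 746 in young libraries, and Psmd10 had 451, 398 and 321 in old and 266, 319 and 358 in young libraries.

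**Figure D4:**
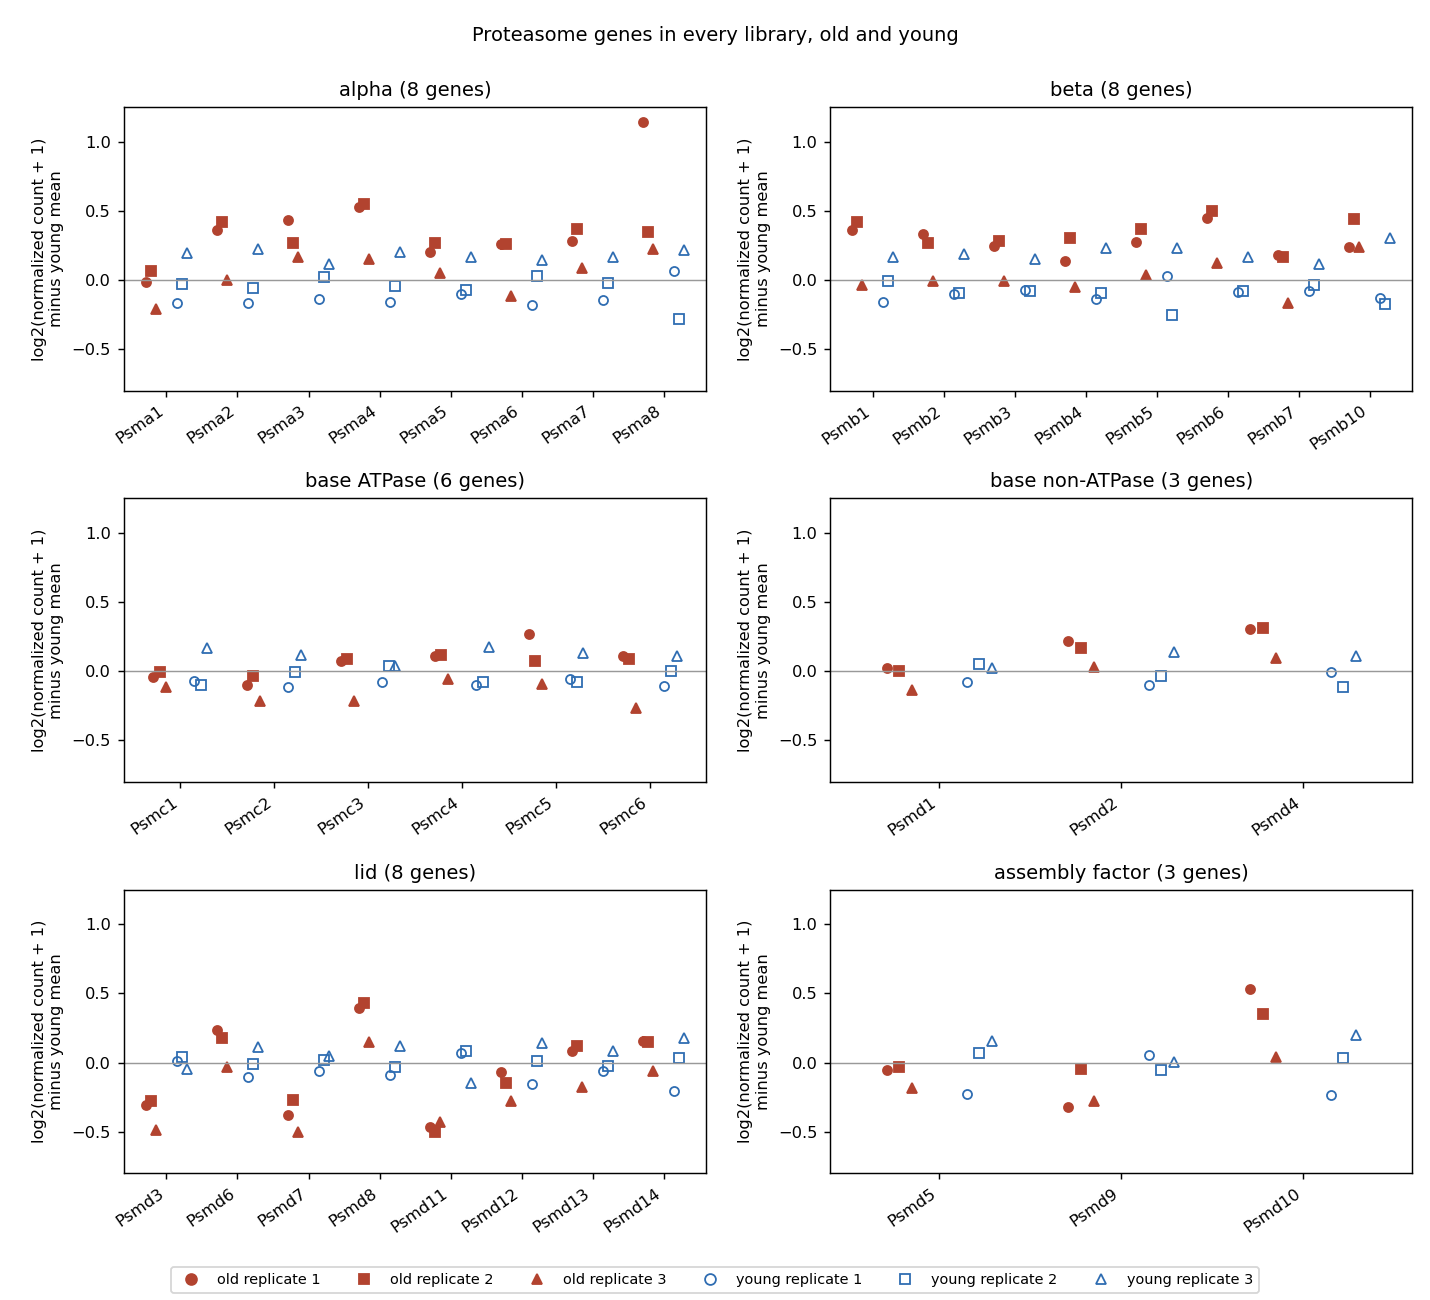
Each gene's log2(normalized count + 1) in every old and young library, minus the mean of the 3 young libraries, by subunit group. Old replicate 3 (filled triangles) lies below the other old libraries for most core genes, and Psmd3, Psmd7 and Psmd11 lie below 0 in every old library.

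Set against each other within a library, core genes stood higher relative to base and lid genes in old macrophages. The mean log2 level of the 16 core genes minus that of the 17 base and lid genes was -0.44, -0.44 and -0.55 in old and -0.77, -0.81 and -0.64 in young libraries. Every old value lay above every young value; no test was run, since the genes were grouped with results known. This difference does not depend on a library's overall scaling, but it compares genes of unequal length. The median of the longest annotated transcript was 1275 bases for the core and 1983 bases for base and lid. With trends in length and GC content removed, the median log2 fold change was 0.16 over the core and -0.05 over base and lid, against 0.24 and -0.02 as deposited. The base and lid median turned positive without old replicate 3 (0.10), without young replicate 3 (0.03) and without both (0.14, 12 of 17 genes positive). The core median was 0.32, 0.33 and 0.41 in those fits. By group, the mean log2 level of alpha genes was 9.55, 9.47 and 9.19 in old and 9.03, 9.09 and 9.33 in young libraries, and that of lid genes 9.96, 9.97 and 9.78 in old and 9.93, 10.02 and 10.07 in young libraries. All 36 genes together held 0.386%, 0.386% and 0.347% of the normalized counts in old and 0.355%, 0.365% and 0.390% in young libraries, so their total did not separate the ages.

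**Figure D5:**
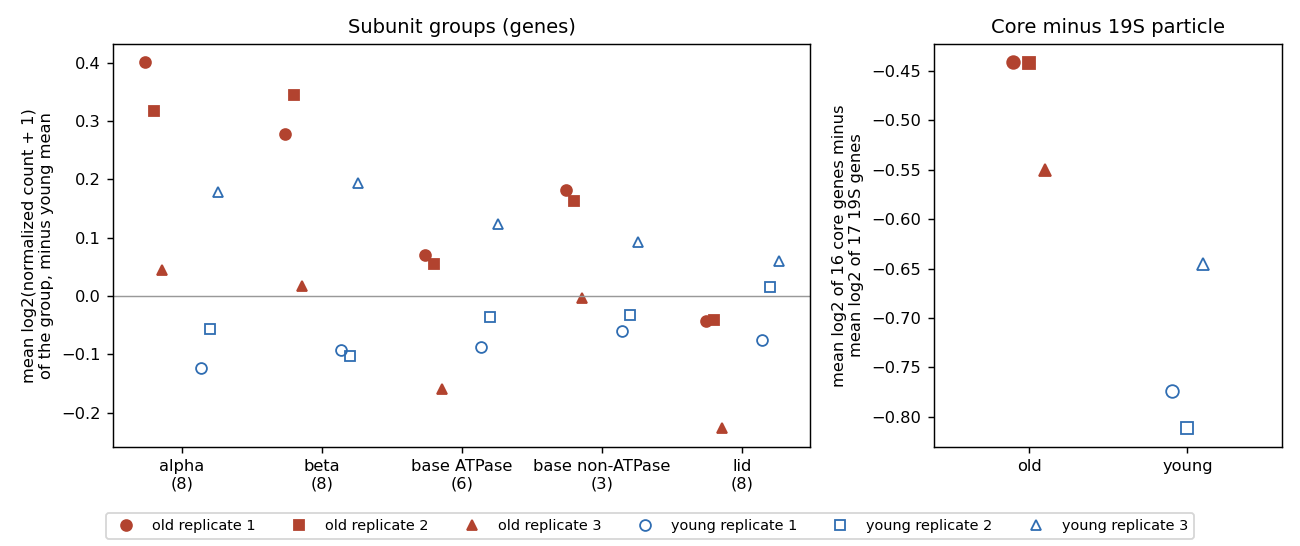
Left, mean log2(normalized count + 1) of each subunit group in every library, minus the young mean; right, mean log2 of the core genes minus mean log2 of the base and lid genes. On the right the old libraries lie between -0.55 and -0.44 and the young ones between -0.81 and -0.64.

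Per length, the genes spanned a wide range of levels. The highest per kb of annotated exon were Psma6, Psmd8 and Psmb6, with 1171 ± 168, 1144 ± 118 and 1093 ± 148 normalized counts per kb in old libraries and 1062 ± 119, 912 ± 70.3 and 851 ± 86.6 in young ones (SD, n = 3 each). In old libraries these 3 lay within 1 SD of one another, but their order and closeness depended on the length used. Per kb of the longest annotated transcript, Psmb6, Psmd8 and Psma6 had 2118 ± 286, 1763 ± 182 and 1387 ± 198 in old libraries (SD, n = 3 each). The lowest was Psma8, with 10.96 ± 4.22 per kb in old and 7.01 ± 1.27 in young libraries. The 3 lower lid genes were also among the lower levels per length, at ranks 29, 32 and 33 of 36 in old and 24, 31 and 33 in young libraries for Psmd7, Psmd3 and Psmd11.

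A second motif is shown because NRF1 binds elements that hold it. The antioxidant response element core TGANNNNGC, searched on both strands, was present in 16 of 29 members (55.2%) and in 45.0% of all genes with a promoter. Of the 4 higher genes 3 held it, Psma4, Psmb6 and Psmd8; that of Psmd8 lies 26 bases after the start site. Of the lower genes only Psmd11 was among the 29 matched genes, and it held none in this window. Psmd3 and Psmd7 had no matched promoter, so higher and lower genes cannot be compared for this motif. The 250 bases before the start site of Psma4 and Psmb6 follow, on build GRCm38.p6, 5′ to 3′ on the gene's strand, with this core in capitals.
Psma4 (chr9:54950609-54950858, plus strand): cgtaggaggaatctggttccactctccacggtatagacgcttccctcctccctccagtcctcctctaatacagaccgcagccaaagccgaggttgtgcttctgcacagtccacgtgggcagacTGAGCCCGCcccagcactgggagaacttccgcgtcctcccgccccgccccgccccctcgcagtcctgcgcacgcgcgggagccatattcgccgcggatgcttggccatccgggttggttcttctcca
Psmb6 (chr11:70525107-70525356, plus strand): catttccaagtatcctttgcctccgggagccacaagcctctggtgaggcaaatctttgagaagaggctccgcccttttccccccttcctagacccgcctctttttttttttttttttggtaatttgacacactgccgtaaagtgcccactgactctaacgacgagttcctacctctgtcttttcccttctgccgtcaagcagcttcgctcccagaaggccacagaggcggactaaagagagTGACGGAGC
In Psmb6 the match ends at the base before the start site, and in Psma4 it begins 127 bases before it. The GC box GGGCGG was present in 62.1% of the 29 members and 38.2% of all genes, the CCAAT box in 37.9% of members and 41.1% of all genes, and the E-box CACGTG in 10.3% of members and 8.09% of all genes. These too are letter matches and not observed binding, and no motif count was tested.

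Genes that activate or assemble the proteasome moved in part. Of 5 activators and inhibitors 2 were higher and 0 lower (median 0.14), in all 40%, against 35.5% of all tested genes. Psme2 and Psme1 encode the interferon-inducible activator that caps the immunoproteasome. Psme2 had 1034, 1027 and 889 normalized counts in old and 649.8, 648 and 806 in young libraries, without overlap, at 0.49 ± 0.10 (SE; limma adjusted p = 0.00505). Psme1 had 919, 968 and 806 in old and 680.0, 718 and 817 in young libraries, with overlap at the libraries numbered 3, and was higher by 0.28 ± 0.09 on the log2 scale (SE; limma adjusted p = 0.0446; passed under 12 of 20 alternatives). Of 13 tested assembly and associated genes 1 was higher and 2 were lower (median -0.02), in all 23.1%, under the share of all tested genes. Pomp, the chaperone that matures the core, had 1464, 1507 and 1132 in old and 953, 956 and 1139.9 in young libraries. Old replicate 3 lay just below young replicate 3, and Pomp was higher at 0.42 ± 0.12 (SE; limma adjusted p = 0.0215). Uchl5, a deubiquitinase bound to the particle, had 336, 333 and 325 in old and 384, 447 and 446 in young libraries, and was lower at -0.36 ± 0.08 (SE; limma adjusted p = 0.00977). Adrm1, the ubiquitin receptor that recruits Uchl5, had 349, 388 and 340.4 in old and 438, 409.8 and 423 in young libraries, and was lower at -0.24 ± 0.08 (SE; limma adjusted p = 0.0457). For both, every old library lay below every young one. Pomp passed under 14, Uchl5 under 18 and Adrm1 under 8 of 20 alternatives.

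The NRF1 pathway and ubiquitin genes moved both ways, with 3 higher and 5 lower of 16 tested (median 0.01). That is 50%, against 35.5% of all tested genes. Nfe2l1 had 1746, 1714 and 1636 normalized counts in old and 2307, 2449.8 and 2419 in young libraries. Every old library lay below every young one, and the log2 difference was -0.49 ± 0.06 (SE; limma adjusted p = 0.000271). Ngly1, which removes the sugars from NRF1 and so allows its activation, had 279.6, 241 and 222 in old and 138, 129.9 and 117 in young libraries, 0.94 ± 0.12 (SE; limma adjusted p = 0.00024). Nploc4, a cofactor of the ATPase that extracts NRF1 from the endoplasmic reticulum, had 1144, 1143 and 1162 in old and 1478, 1476 and 1562 in young libraries, and was lower at -0.39 ± 0.06 (SE; limma adjusted p = 0.000976). Other genes that passed, named after their values were seen, were the NRF1 protease Ddi2 at -0.31, the extracting ATPase Vcp at -0.23, the shuttle gene Ubqln2 at -0.51, the ubiquitin gene Ubb at 0.30, and Nfe2l2, which encodes the related factor NRF2, at 0.27. Nfe2l1, Ngly1, Nploc4 and Ubqln2 passed under 20 of 20 alternatives, Ddi2 under 17, Vcp under 15, Ubb under 13 and Nfe2l2 under 12.

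The COP9 signalosome and the translation factor eIF3 are built on the same plan as the lid. Of 9 signalosome genes 2 were higher and 0 lower (median 0.06), in all 22.2%, under the 35.5% of all tested genes. Cops3 had 526, 479.5 and 455 normalized counts in old and 369, 402 and 425 in young libraries, at 0.29 ± 0.09 (SE; limma adjusted p = 0.0304). Cops4 had 673, 679 and 549.9 in old and 486, 515 and 534 in young libraries, at 0.30 ± 0.10 (SE; limma adjusted p = 0.0339). Neither gene's groups overlapped, and each passed under 13 of 20 alternatives. Of 13 tested eIF3 genes 0 were higher and 3 lower (median 0.08), in all 23.1%, also under the share of all tested genes. Eif3b had 1240.4, 1079 and 1213 in old and 1702, 1665 and 1578 in young libraries, at -0.49 ± 0.07 (SE; limma adjusted p = 0.000823). Eif3c and Eif3a were lower at -0.32 ± 0.09 and -0.25 ± 0.07 (SE; limma adjusted p = 0.018 and 0.0201), with 2790.3, 2837 and 2492 in old and 3110.2, 3302 and 3710.4 in young libraries for Eif3c. Eif3a had 3159.6, 2907 and 2991 in old and 3391, 3732 and 3629 in young libraries. For all 3 genes every old library lay below every young one, and they passed under 20 (Eif3b), 16 (Eif3c) and 15 (Eif3a) of 20 alternatives. In the cytosolic chaperonin CCT, a complex of another design, 0 of 8 genes passed (median 0.12) and 1 had an unadjusted p under 0.05. Without both libraries numbered 3, 7 of 8 chaperonin genes (87.5%) were higher, against 30.3% of all tested genes. In that fit 7 of 13 eIF3 genes were higher and 3 lower (median 0.20), in all 76.9%. Of 9 signalosome genes 5 were higher and 0 lower (median 0.20), in all 55.6%. The share of all tested genes called in either direction was 59.0%.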

How the data were processed

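RNA sequencing of 6 macrophage libraries was analysed from the authors' deposited table, which holds gene counts divided by size factors (a normalized signal). DESeq2 and build mm10 are named in the submitters' processing notes; the choice of aligner, counting tool and strandedness is not given in the sources used here. Each column's values are whole multiples of 1 step, and all values came back as whole reads within 0.01 reads. Those reads gave the depths and entered edgeR 4.0.16 and DESeq2 1.42.0 as alternatives.

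Gene IDs were matched to GENCODE M21 (19917 of 19973). Genes with a mean of at least 10 were tested with limma 3.58.1 (variance trend) in R 4.3.3 on log2(value + 1), 2-sided, with Benjamini-Hochberg adjustment over all tested genes and a threshold of 0.05. Folds on this scale understate the change of low genes. The code was tested on simulated data. Near-identical copies were found with blastn 2.17.0 (at least 95% identity over at least 200 bases).

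The members and lists were chosen with earlier results of these data known. Values per library are given for up to 3 passing genes per subunit group or companion list, by adjusted p, for the 2 genes with the highest mean in a subunit group where 0 passed, and for Psmb5, Psmb6, Psmb7, Psmb10, Psmd4 and Psmd14; Psmd8, Psma8 and some companion genes were added after their values were seen. Alternatives varied the pseudocount, filter, scaling, weighting, tool, replicate block and libraries. Libraries treated with the lipid were not analysed here. A gene of the NRF1 and ubiquitin list is not reported here and was left out of that list's counts.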

Additional observations from a re-analysis of the deposited data

How the results depend on the processing

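Over 20 alternatives, Psmd3, Psmd7 and Psmd11 were lower in old in each, with log2 fold changes from -0.56 to -0.29 across the 3 genes; library weights gave 4 lower members by adding Psmd9. The 4 higher members of the fit with all libraries depended on the setting: 7 members were higher with median centring, 22 with library weights, 25 without both libraries numbered 3, and 0 with length and GC trends removed, without a variance trend or with the replicate block. Leaving out 1 library gave 0 to 16 higher members; the cause was not tested. Psma3, Psma4, Psmb6 and Psmd8 kept positive log2 fold changes in each alternative, and edgeR and DESeq2 on whole reads called the same 4 higher and 3 lower genes. Psmc6 reversed to 0.15 without both libraries numbered 3. Over all genes 2107 were higher and 2076 lower; the counts were 3875 and 3759 with weights, 1281 and 1362 with the replicate block, 3573 and 3387 without both libraries numbered 3, and 1444 to 2772 and 1486 to 2888 leaving out 1 library. Deviations of same-numbered old and young libraries from their age means correlated at -0.38, -0.36 and -0.68. With 3 libraries a group such deviations depend on one another, so these values cannot decide whether replicate numbers pair the libraries. With 3 libraries a group, small differences could not be detected.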
